A study of Mus musculus with 6 samples.

Results

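The genes described here encode the subunits of integrins, the cell surface receptors for extracellular matrix, and the chains of laminins, the glycoproteins of basement membranes. They were taken by symbol from a list of 26 integrin subunits and 10 laminin chains, and all 36 were found among the 38561 Ensembl genes counted in each library. Of the 36, 34 passed the filter on low counts. The remaining genes, Itgb6 and Lamc3, are described by their counts.

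An integrin is a pair of an alpha and a beta subunit, both of which span the membrane, and the pair decides the ligand. Some pairs bind collagens, some laminins, some proteins with an RGD sequence such as fibronectin and vitronectin, and a leukocyte set binds counter-receptors on other cells. A laminin is a trimer of an alpha, a beta and a gamma chain, laid down by the cells that rest on the basement membrane, among them muscle fibres, endothelium, Schwann cells and pericytes. Pericytes lie inside the basement membrane of small vessels and share it with the endothelium.

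RNA of 6 mouse samples had been sequenced, 2 libraries for each of 3 groups, and every animal was NG2-Cre;p53flox/flox on a mixed background. The NG2 promoter, that of Cspg4, drives Cre, which cuts out the floxed stretch of Trp53. The reference cells therefore came from animals of the same genotype as the tumours. Whether that stretch was cut out in the sorted cells was not tested. The groups were cells sorted out of skeletal muscle with an antibody to NG2 and labelled as perivascular cells (NG2 cells), osteosarcomas from the right tibia (replicate 1) and the lumbar spine (replicate 2), and soft tissue sarcomas from subcutaneous tissue. The ages of the animals, and whether the replicates came from different mice, were not stated, so p-values speak only of the spread among these 6 samples, which may be technical.

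Between 27693585 and 58126832 reads were counted on genes in a library. A digit in the deposited file names, taken here as the sequencing lane, was 4 for NG2 cells, 5 for osteosarcoma and 6 for soft tissue sarcoma. If it is the lane, lane and group cannot be told apart. Trp53 had 101 and 82.3 CPM in the NG2 cell libraries, 24.3 and 32.6 in the osteosarcomas, and 31.2 and 27.3 in the soft tissue sarcomas, and Cspg4 38.6 and 30.6 CPM in the NG2 cell libraries, 118 and 37.7 in the osteosarcomas, and 188 and 88.7 in the soft tissue sarcomas. Reads from Trp53 exons that are not floxed were counted too, so its level is a weak check of the labels. The 10 pericyte and mural cell markers were detected in every group. Their sums were 1123 and 1775 CPM in the NG2 cell libraries, 662 and 1621 in the osteosarcomas, and 1043 and 679 in the soft tissue sarcomas. The sums of NG2 cells and osteosarcoma overlapped, and those of soft tissue sarcoma were lower than in NG2 cells. By the calls defined below, 2 of the 10 (20%) rose and 2 (20%) fell in osteosarcoma, beside 10.5% and 11% of all tested genes. In soft tissue sarcoma 0 rose and 2 (20%) fell, beside 9.89% and 9.4%. The NG2 cell libraries also held lymphocyte transcripts: 12 markers summed to 5985 and 3218 CPM in the NG2 cell libraries, 56.2 and 67.4 in the osteosarcomas, and 181 and 125 in the soft tissue sarcomas. Osteosarcoma replicate 1 held both the X-inactivation RNA Xist (54.2 CPM) and the Y-linked Ddx3y (14.8 CPM). In soft tissue sarcoma Xist was at 0.0839 and 0.135 CPM and Ddx3y at 76.7 and 43.1 CPM, and in NG2 cells Xist was at 347 and 488 CPM and Ddx3y had 0 counts. Sex and group can therefore not be told apart in soft tissue sarcoma against NG2 cells. Osteosarcoma replicate 2 had Xist at 204 CPM and Ddx3y at 0.0356 CPM. Sex was therefore not balanced between the tumour types either, and its part in their differences cannot be told apart. None of the members lies on a sex chromosome.

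The upstream sequences of 5 members are shown first because the results below turn on them. Itga10 and Itga11 rose most in osteosarcoma, Itga5 and Lamb1 rose most in soft tissue sarcoma, and Itga4 had the smallest p among members in both comparisons with NG2 cells. The sequences are the 250 bases before the transcription start that RefSeq gives on GRCm38.p6, written 5′ to 3′ on the strand of the gene, and capitals mark matches to the motifs named below. Itga10 lies at chr3:96645334-96645583 (plus strand), Itga11 at chr9:62677605-62677854 (plus), Itga5 at chr15:103366792-103367041 (minus), Lamb1 at chr12:31265043-31265292 (plus) and Itga4 at chr2:79255176-79255425 (plus). The RefSeq start differs from the GENCODE gene start given further on for Itga11, Itga5 and Lamb1.
Itga10: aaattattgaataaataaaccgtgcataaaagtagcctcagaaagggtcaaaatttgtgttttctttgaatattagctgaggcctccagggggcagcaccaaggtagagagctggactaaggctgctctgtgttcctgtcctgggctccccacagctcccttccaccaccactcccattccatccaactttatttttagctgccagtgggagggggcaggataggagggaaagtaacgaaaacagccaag
Itga11: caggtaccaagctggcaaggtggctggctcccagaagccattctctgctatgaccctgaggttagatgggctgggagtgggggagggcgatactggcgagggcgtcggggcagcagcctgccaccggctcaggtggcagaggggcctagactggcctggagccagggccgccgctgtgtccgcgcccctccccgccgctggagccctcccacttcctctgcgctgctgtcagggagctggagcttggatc
Itga5: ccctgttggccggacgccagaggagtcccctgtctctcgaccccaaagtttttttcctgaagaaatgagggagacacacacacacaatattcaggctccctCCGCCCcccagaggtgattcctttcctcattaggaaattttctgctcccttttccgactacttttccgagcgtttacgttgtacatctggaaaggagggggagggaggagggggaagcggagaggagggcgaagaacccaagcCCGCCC
Lamb1: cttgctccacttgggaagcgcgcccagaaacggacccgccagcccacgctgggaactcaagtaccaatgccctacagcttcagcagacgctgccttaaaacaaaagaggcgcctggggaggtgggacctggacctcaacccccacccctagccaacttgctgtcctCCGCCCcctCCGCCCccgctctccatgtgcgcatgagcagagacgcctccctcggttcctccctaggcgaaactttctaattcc
Itga4: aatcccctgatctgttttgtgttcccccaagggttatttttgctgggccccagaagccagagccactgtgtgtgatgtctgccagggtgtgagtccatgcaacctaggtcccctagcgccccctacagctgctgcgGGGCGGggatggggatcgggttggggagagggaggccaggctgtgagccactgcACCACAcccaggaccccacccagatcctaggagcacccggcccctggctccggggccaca

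A promoter was given for 23 of the 36 members, in 26 windows. These were searched on both strands for 5 motifs that do not overlap in the sequences shown: the GC box GGGCGG, the RUNX motif TGTGGT, the AP-1 motif TGANTCA, the TATA box TATAAA and the CRE motif TGACGTCA. The GC box was in 9 of the 26 windows (34.6%) and in 32.7% of all 32851 promoter windows. It was matched at 2 places each in the windows of Itga5 and Lamb1 and at 1 place in that of Itga4. The RUNX motif was in 2 member windows (7.69%), those of Itga3 and Itga4, and in 14.0% of all windows. The AP-1 motif was in 1 member window, that of Itgax (3.85%, against 6.75% of all windows). The TATA box and the CRE motif were in no member window, against 12.4% and 1.55% of all windows. The windows of Itga10 and Itga11 held none of these letters, and their GC contents were 48% and 68.4%. A match is a run of letters and does not show binding.

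Both tumour types were compared with the sorted NG2 cells, and with each other, in a single edgeR quasi-likelihood model of the 6 libraries. Values are normalised read counts (CPM), given for replicate 1 and then replicate 2, and fold changes compare group means of CPM. Errors of log2 fold changes (log2FC) are SE worked back from the F statistic of that model, with n = 2 per group. The spread in that model is estimated over the 6 libraries, not from the 2 libraries of a group alone. A gene was called, and is said to have risen or fallen, where its p adjusted over all 19024 tested genes (Benjamini-Hochberg) was under 0.05. In osteosarcoma against NG2 cells 4 of the 34 tested members (11.8%) rose, beside 10.5% of all tested genes, a share near the background. The members that fell numbered 7 (20.6%, beside 11% of all genes). In soft tissue sarcoma 7 members (20.6%) rose beside 9.89% of all genes, and 3 (8.82%) fell beside 9.4%, which is again near the background. The median log2 fold change of the tested members was -0.33 in osteosarcoma and 0.20 in soft tissue sarcoma, beside 0.04 and 0.00 over all tested genes. The shares of all tested genes called in each direction are also the background for the counts of called list and marker genes given below. Both comparisons share the NG2 cell libraries. Leaving out either soft tissue sarcoma library ended the calls of all genes of the table in that comparison. Without NG2 cell replicate 1 none of the 7 rises was called, and without replicate 2 only that of Itgb1. In osteosarcoma 2 to 4 of the 4 rises and 3 to 4 of the 7 falls were called again without single libraries.

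**Figure D1:**
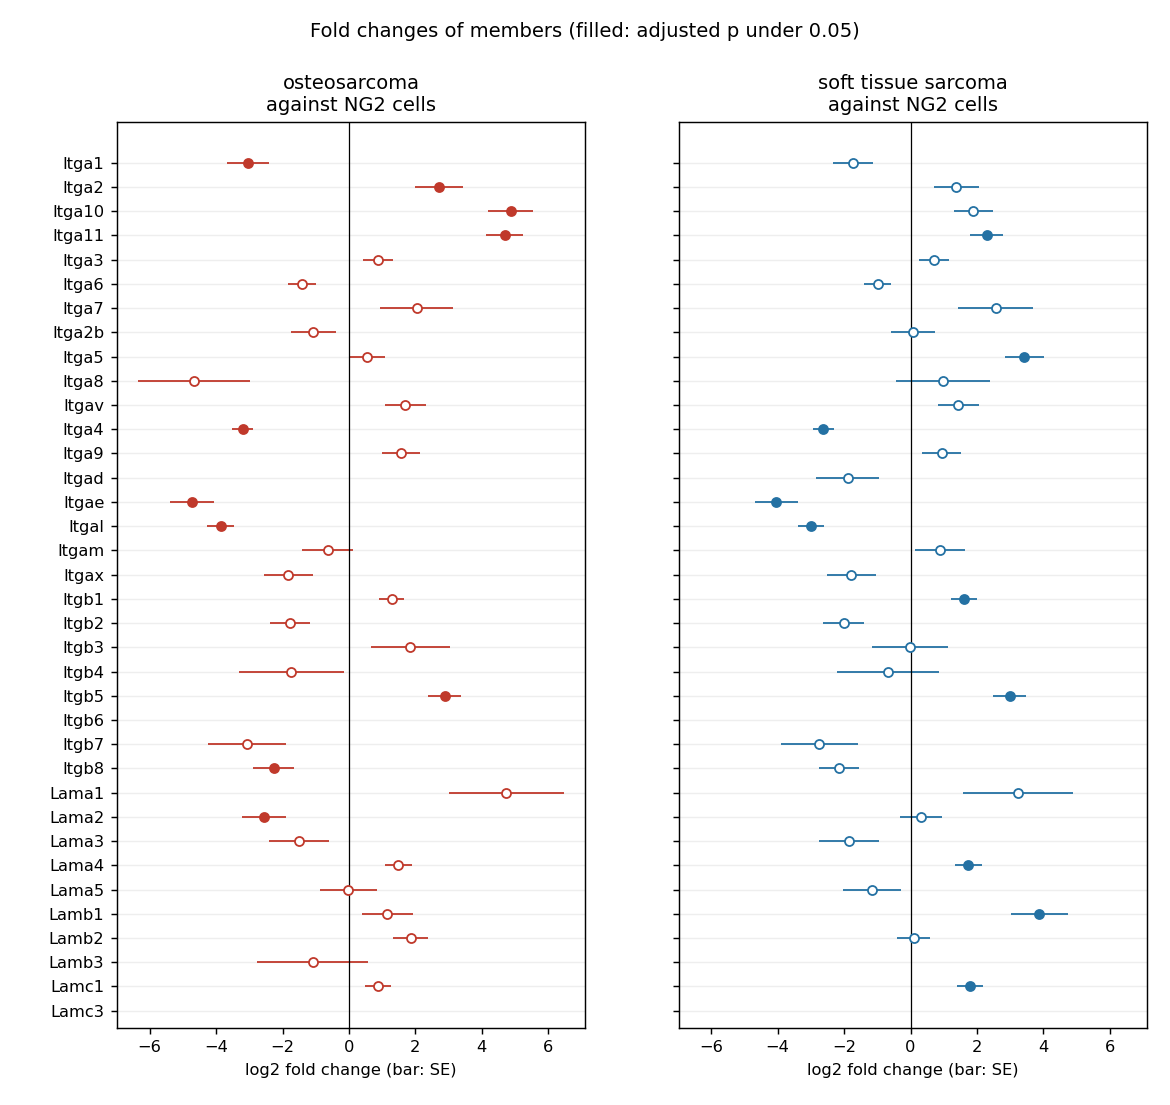
Log2 fold change of each member (points, with SE bars) in osteosarcoma and in soft tissue sarcoma against NG2 cells, filled where the adjusted p was under 0.05. Fits with 3 or fewer counts in a group are not drawn. Itga10 and Itga11 stand farthest to the right among filled points in osteosarcoma, and Lamb1 and Itga5 in soft tissue sarcoma.

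Among the alpha subunits that pair with Itgb1 to bind collagens, 3 of 4 rose in osteosarcoma and the fourth, Itga1, fell. Itga10 (ENSMUSG00000090210; chromosome 3, 96645584 to 96664519, GRCm38), the receptor subunit of cartilage cells for collagen type II, had 3.08 and 1.47 CPM in the NG2 cell libraries, 86.7 and 45.4 in the osteosarcomas, and 11.3 and 5.49 in the soft tissue sarcomas. Both osteosarcomas were above all other libraries, and both soft tissue sarcomas lay above the NG2 cells. Itga10 rose 29.1-fold in osteosarcoma (log2FC 4.86 ± 0.67, adjusted p = 0.00983) and was not called in soft tissue sarcoma (log2FC 1.89 ± 0.596, adjusted p = 0.0732). Without NG2 cell replicate 2 the osteosarcoma value was 4.43 and narrowly missed the threshold (adjusted p = 0.0505). GENCODE places 33.5% of its exon length also in a gene model not counted in these tables.

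Itga11 (ENSMUSG00000032243; chromosome 9, 62677826 to 62783982), a receptor subunit for fibrillar collagens on mesenchymal cells, had 2.22 and 1.58 CPM in the NG2 cell libraries, 30.2 and 67.7 in the osteosarcomas, and 9.92 and 8.69 in the soft tissue sarcomas. No library of any group overlapped those of another group. It rose 25.8-fold in osteosarcoma (log2FC 4.69 ± 0.56, adjusted p = 0.00761), a call that was kept in each of the 6 fits without a library (log2 4.0 to 5.15). In soft tissue sarcoma it rose 4.9-fold (log2FC 2.29 ± 0.503, adjusted p = 0.0312), with log2 values of 2.08 to 2.56 and adjusted p of 0.0912 and 0.128 without NG2 cell replicates 1 and 2, and 0.144 and 0.137 without soft tissue sarcoma replicates 1 and 2. All 8 osteoblast markers rose in osteosarcoma, as Itga10 and Itga11 did. In soft tissue sarcoma 1 of the 8 rose and 1 fell, with a median log2 fold change of 0.31, so the list as a whole did not follow Itga11 there. The summed level of the 8 was 96.3 and 104 CPM in the NG2 cell libraries, 35052 and 38687 in the osteosarcomas, and 2439 and 1842 in the soft tissue sarcomas. Ibsp was at 0 in NG2 cells and Sp7 at 0 in soft tissue sarcoma. The summed level of the 8 fibroblast markers stood in the same order of groups. It was 823 and 406 CPM in the NG2 cell libraries, 35588 and 20390.2 in the osteosarcomas, and 7683 and 5956 in the soft tissue sarcomas. None of the 8 was at 0, and 2 of them rose in each tumour type. Their median log2 fold change against NG2 cells was 0.53 in osteosarcoma and 2.68 in soft tissue sarcoma. The list as a whole therefore did not follow the order of its sum, nor that of Itga10 and Itga11. Whether these cells contribute to either level was not tested.

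Itga2 (ENSMUSG00000015533; chromosome 13, 114833081 to 114932100), the collagen receptor subunit best known from platelets and epithelium, had 1.94 and 1.38 CPM in the NG2 cell libraries, 5.63 and 16.2 in the osteosarcomas, and 4.9 and 3.74 in the soft tissue sarcomas. It rose 6.59-fold in osteosarcoma (log2FC 2.72 ± 0.72, adjusted p = 0.0456), but the replicates differed, and the call was kept only without osteosarcoma replicate 1 (log2 3.29). The values were 2.98 and 2.5 without NG2 cell replicates 1 and 2, 1.78 without osteosarcoma replicate 2, and 2.73 and 2.73 without soft tissue sarcoma replicates 1 and 2, with adjusted p between 0.1 and 0.158.

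Itga1 (ENSMUSG00000042284; chromosome 13, 114953096 to 115101964), a receptor subunit for collagen type IV and other collagens on mural, endothelial and mesenchymal cells, had 88.3 and 85.1 CPM in the NG2 cell libraries, 7.18 and 14 in the osteosarcomas, and 39.2 and 12.6 in the soft tissue sarcomas. Every tumour library was below both NG2 cell libraries. It fell 8.2-fold in osteosarcoma (log2FC -3.04 ± 0.64, adjusted p = 0.0258) and was not called in soft tissue sarcoma (log2FC -1.74 ± 0.61, adjusted p = 0.0918). The osteosarcoma call was lost without NG2 cell replicate 1, NG2 cell replicate 2 or osteosarcoma replicate 1, at log2 values of -3.02, -3.06 and -2.64. The 10 endothelial markers, all detected in each group, summed to 1339 and 2225 CPM in the NG2 cell libraries, 196 and 579.7 in the osteosarcomas, and 334 and 264 in the soft tissue sarcomas, and 4 of them fell in osteosarcoma and 5 in soft tissue sarcoma. Any part of theirs in the fall of Itga1 was not tested. In bulk samples such as these, fewer cells of a type and less RNA per cell cannot be told apart.

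None of the 3 laminin-binding alpha subunits was called in either tumour type. Itga6 (ENSMUSG00000027111; chromosome 2, 71745616 to 71858416), which pairs with Itgb1 or Itgb4, had 98.5 and 165 CPM in the NG2 cell libraries, 34.3 and 65 in the osteosarcomas, and 69.5 and 62.9 in the soft tissue sarcomas, so that all tumour libraries were below the NG2 cells, where its mean level per kilobase of exon was the highest of the alpha subunits (14.6 ± 5.24 CPM per kilobase, SD, n = 2). Its log2 fold changes were -1.41 ± 0.42 in osteosarcoma (adjusted p = 0.0606) and -0.99 ± 0.42 in soft tissue sarcoma (adjusted p = 0.14). Itga3, a laminin receptor subunit of epithelium and mesenchyme, had 8.2 and 9.83 CPM in the NG2 cell libraries, 20.8 and 11.9 in the osteosarcomas, and 16.7 and 12.5 in the soft tissue sarcomas, with both tumour types above the NG2 cells but not called (adjusted p = 0.207 and 0.303). Itga7, the laminin receptor subunit of skeletal muscle and of vascular mural cells, had 2.22 and 3.28 CPM in the NG2 cell libraries, 1.55 and 21 in the osteosarcomas, and 17.7 and 14.8 in the soft tissue sarcomas. Osteosarcoma replicate 1 was the lowest of the 6 libraries and replicate 2 the highest, and the call was missed in both comparisons (adjusted p = 0.223 and 0.155). Muscle fibre markers, 10 genes, summed to 101 and 90.7 CPM in the NG2 cell libraries, 15.7 and 1252 in the osteosarcomas, and 53.9 and 17.4 in the soft tissue sarcomas, with Pvalb at 0 in soft tissue sarcoma and no marker called in any comparison. Their part in the Itga7 values was not tested.

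Of the 4 alpha subunits that bind RGD-containing ligands, Itga5 was called in soft tissue sarcoma and none in osteosarcoma. Itga5 (ENSMUSG00000000555; chromosome 15, 103344286 to 103366763), which with Itgb1 forms the classical fibronectin receptor, had 29.3 and 47.7 CPM in the NG2 cell libraries, 31.5 and 81.3 in the osteosarcomas, and 312 and 516 in the soft tissue sarcomas. Both soft tissue sarcomas were far above the other 4 libraries, among which osteosarcoma and NG2 cells overlapped. It rose 10.8-fold in soft tissue sarcoma (log2FC 3.43 ± 0.59, adjusted p = 0.0174) and was not called in osteosarcoma (log2FC 0.55 ± 0.53, adjusted p = 0.484). Single libraries moved the soft tissue sarcoma value from 3.05 to 3.84, and the call was lost without NG2 cell replicate 1 or 2 (adjusted p = 0.0862 and 0.0702) and without soft tissue sarcoma replicate 1 or 2 (0.078 and 0.104).

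Itgav, the alpha subunit of the vitronectin receptors and of integrins that activate latent TGF-beta, had 51.2 and 44 CPM in the NG2 cell libraries, 64.5 and 245 in the osteosarcomas, and 152 and 106 in the soft tissue sarcomas, above both NG2 cell libraries in every tumour but not called (adjusted p = 0.0983 and 0.147). Itga8, a mesenchymal subunit that binds nephronectin, had 5.71 and 11.5 CPM in the NG2 cell libraries, 0.0379 and 0.676 in the osteosarcomas, and 31.2 and 2.39 in the soft tissue sarcomas. It was nearly absent from osteosarcoma, where 2 and 19 reads were counted, and the soft tissue sarcomas lay on either side of the NG2 cells. Neither comparison was called (adjusted p = 0.0952 and 0.654). Itga2b, the fibrinogen receptor subunit of platelets, had 3.27 and 9.47 CPM in the NG2 cell libraries, 3.03 and 3.02 in the osteosarcomas, and 7.53 and 6 in the soft tissue sarcomas and was not called (adjusted p = 0.284 and 0.94).

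**Figure D2:**
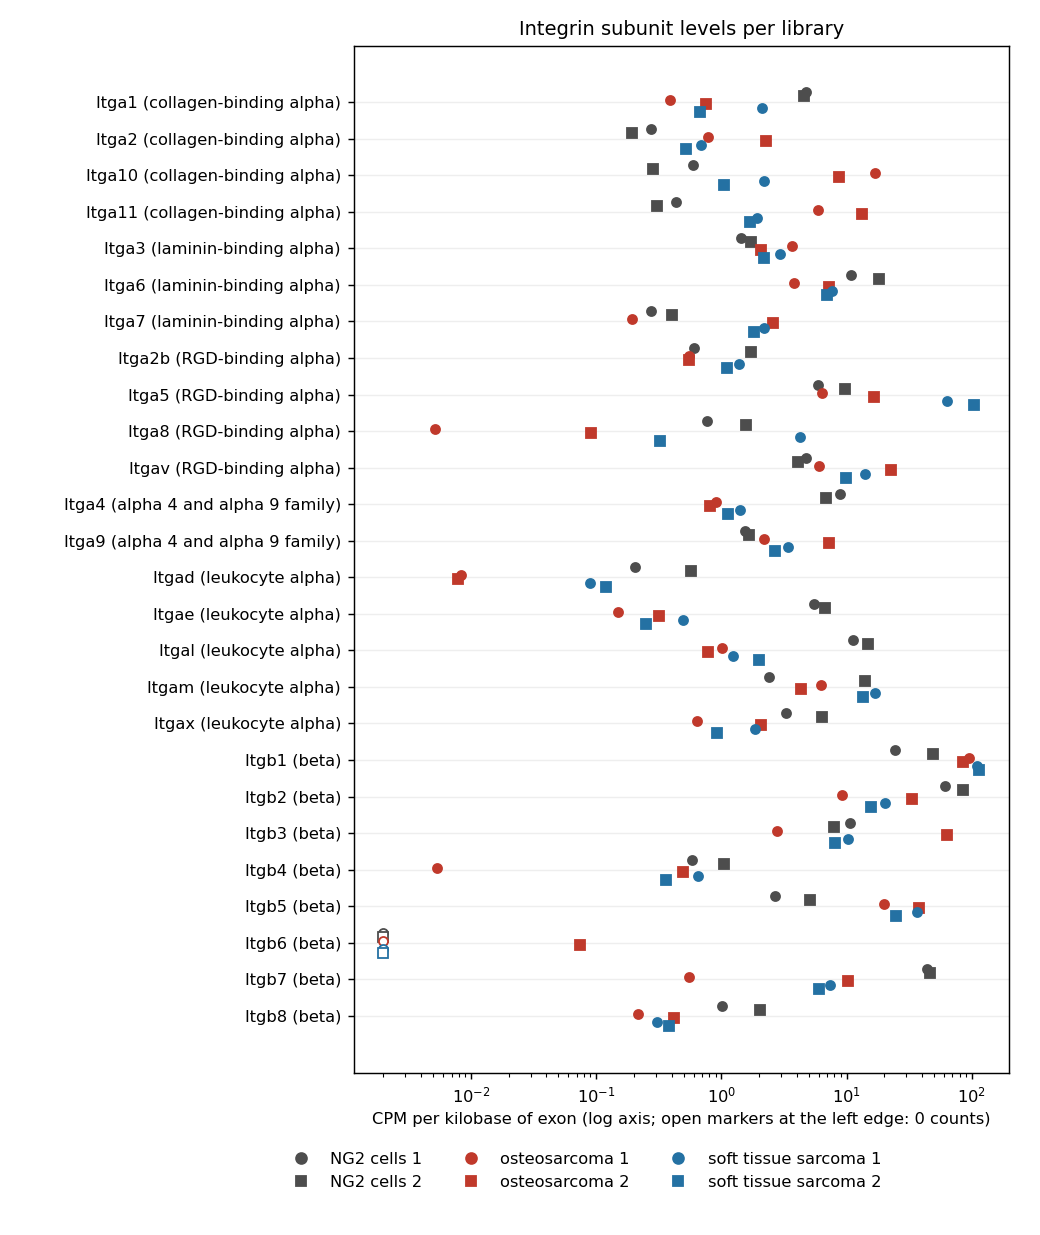
Level of each integrin subunit per library in CPM per kilobase of exon on a log axis, with color for the group and marker shape for the replicate. Open markers at the left edge are libraries with 0 counts. Itgb1 lies at the right of the beta subunits in the tumours, and Itga5 of the soft tissue sarcomas lies to the right of all other alpha subunits.

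Of the beta subunits, Itgb5 rose in both tumour types and Itgb1 in soft tissue sarcoma. Itgb5 (ENSMUSG00000022817; chromosome 16, 33829665 to 33949338), the partner of Itgav in a vitronectin receptor, had 9.45 and 18.2 CPM in the NG2 cell libraries, 70.7 and 134 in the osteosarcomas, and 129.9 and 88.6 in the soft tissue sarcomas, with all tumours above all NG2 cells. It rose 7.38-fold in osteosarcoma (log2FC 2.88 ± 0.503, adjusted p = 0.0168) and 7.9-fold in soft tissue sarcoma (log2FC 2.98 ± 0.505, adjusted p = 0.0171). The osteosarcoma call was lost without NG2 cell replicate 1 (log2 2.48, adjusted p = 0.0711). The soft tissue sarcoma call was lost without NG2 cell replicate 1 or 2 and without soft tissue sarcoma replicate 1 or 2, at log2 values of 2.59, 3.55, 2.7 and 3.26.

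Itgb1 (ENSMUSG00000025809; chromosome 8, 128685654 to 128733200), the common partner of most matrix-binding alpha subunits, had 99.2 and 201 CPM in the NG2 cell libraries, 386 and 345 in the osteosarcomas, and 445 and 466 in the soft tissue sarcomas, and all tumours were above both NG2 cell libraries. It rose 3.04-fold in soft tissue sarcoma (log2FC 1.6 ± 0.38, adjusted p = 0.0379) and was 2.43-fold higher in osteosarcoma without passing the threshold (log2FC 1.28 ± 0.38, adjusted p = 0.0599). In soft tissue sarcoma the value was 1.19 without NG2 cell replicate 1, 1.65 without soft tissue sarcoma replicate 1 and 1.6 without replicate 2, none of them called.

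Itgb3, the partner of Itgav on osteoclasts and of Itga2b on platelets, was uneven in osteosarcoma. It had 62.4 and 46.8 CPM in the NG2 cell libraries, 16.6 and 375 in the osteosarcomas, and 60.6 and 47.6 in the soft tissue sarcomas, so that osteosarcoma replicate 1 was the lowest and replicate 2 the highest of the 6 libraries. Neither comparison was called (adjusted p = 0.298 and 0.997), but the osteosarcoma value (1.84 ± 1.19, log2) depended on the library. Without osteosarcoma replicate 2 it was -1.71, a called fall (adjusted p = 0.0416), and without replicate 1 it was 2.78, a called rise (adjusted p = 0.0113). The 8 osteoclast markers summed to 79.2 and 107 CPM in the NG2 cell libraries, 923 and 19949 in the osteosarcomas, and 554 and 325 in the soft tissue sarcomas. Their sum, like Itgb3, was higher in osteosarcoma replicate 2 than in replicate 1. Unlike Itgb3, it was above the NG2 cells and soft tissue sarcomas in both osteosarcomas. In osteosarcoma 6 of the 8 rose, and Oscar was at 0 in NG2 cells. Their part in the Itgb3 and Itgav values was not tested.

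Itgb8, an Itgav partner that binds latent TGF-beta, had 11.2 and 22.4 CPM in the NG2 cell libraries, 2.41 and 4.62 in the osteosarcomas, and 3.37 and 4.21 in the soft tissue sarcomas. It fell 4.78-fold in osteosarcoma (log2FC -2.26 ± 0.61, adjusted p = 0.0488), a call that was lost in each of the 6 fits without a library, at log2 values of -2.79 to -1.67, and it was not called in soft tissue sarcoma (adjusted p = 0.0576). The epithelial subunit Itgb6 had 0 counts in 5 libraries and 15 counts in osteosarcoma replicate 2. Itgb4, the hemidesmosome partner of Itga6, had 4.07 and 7.4 CPM in the NG2 cell libraries, 0.0379 and 3.45 in the osteosarcomas, and 4.6 and 2.53 in the soft tissue sarcomas, with 2 reads in osteosarcoma replicate 1, and was not called (adjusted p = 0.458 and 0.777). The 10 epithelial markers summed to 58 and 27.5 CPM in the NG2 cell libraries, 7.35 and 10.0 in the osteosarcomas, and 14.1 and 116 in the soft tissue sarcomas. At 0 were Krt15 and Dsp in NG2 cells, Krt5, Krt15, Krt18, Dsp and Col17a1 in osteosarcoma, and Krt5 and Krt15 in soft tissue sarcoma. Their contribution to the Itgb4 values was not tested.

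Apart from Itgam, the leukocyte integrin subunits were higher in both NG2 cell libraries than in every tumour, and 3 of the 5 leukocyte alpha subunits fell in osteosarcoma and 2 in soft tissue sarcoma. Itgal (ENSMUSG00000030830; chromosome 7, 127296260 to 127335138), the alpha subunit of LFA-1, had 73.8 and 97.1 CPM in the NG2 cell libraries, 6.63 and 5.16 in the osteosarcomas, and 8.14 and 13.1 in the soft tissue sarcomas. It fell 14.5-fold in osteosarcoma (log2FC -3.86 ± 0.405, adjusted p = 0.00616) and 8.04-fold in soft tissue sarcoma (log2FC -3.01 ± 0.39, adjusted p = 0.011). Itgae (ENSMUSG00000005947; chromosome 11, 73090583 to 73147446), the subunit of tissue-resident T cells and some dendritic cells that binds E-cadherin, had 25.3 and 30.9 CPM in the NG2 cell libraries, 0.682 and 1.46 in the osteosarcomas, and 2.25 and 1.15 in the soft tissue sarcomas. It fell 26.3-fold in osteosarcoma (log2FC -4.72 ± 0.67, adjusted p = 0.0102) and 16.6-fold in soft tissue sarcoma (log2FC -4.04 ± 0.64, adjusted p = 0.0153). In both genes every tumour library was below both NG2 cell libraries, and both osteosarcoma calls were kept in each fit without a library (log2 -4.05 to -3.64 for Itgal and -5.34 to -4.27 for Itgae). The soft tissue sarcoma calls were lost without soft tissue sarcoma replicate 1 (log2 -2.69 for Itgal and -4.59 for Itgae) or replicate 2 (-3.37 and -3.62). They were also lost without NG2 cell replicate 2 (-2.78 and -3.87) and, for Itgae, without NG2 cell replicate 1 (-4.17).

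Itga4 (ENSMUSG00000027009; chromosome 2, 79255426 to 79333123), the VCAM-1 and fibronectin receptor subunit of lymphocytes and of some mesenchymal cells, had 124 and 95.8 CPM in the NG2 cell libraries, 12.7 and 11.3 in the osteosarcomas, and 19.8 and 15.9 in the soft tissue sarcomas. It fell 9.16-fold in osteosarcoma (log2FC -3.2 ± 0.31, adjusted p = 0.00552) and 6.15-fold in soft tissue sarcoma (log2FC -2.62 ± 0.305, adjusted p = 0.00942), with no overlap between NG2 cells and tumours. The osteosarcoma call was kept in each of the 6 fits without a library, and that in soft tissue sarcoma was lost without soft tissue sarcoma replicate 1 or 2 (log2 -2.77 and -2.45). The gene shares 8.04% of its exon length with Cerkl on the other strand. Its relative Itga9, a subunit for tenascin-C and VCAM-1, had 11.8 and 12.7 CPM in the NG2 cell libraries, 16.9 and 55.6 in the osteosarcomas, and 26 and 20.7 in the soft tissue sarcomas, above the NG2 cells in all tumours but not called (adjusted p = 0.103 and 0.285).

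Itgb2, the beta subunit of the leukocyte integrins, had 185 and 259.8 CPM in the NG2 cell libraries, 28.3 and 102 in the osteosarcomas, and 62.3 and 47.6 in the soft tissue sarcomas, and Itgb7, the partner of Itga4 and Itgae on lymphocytes, had 122 and 128 CPM in the NG2 cell libraries, 1.52 and 28.7 in the osteosarcomas, and 20.5 and 16.7 in the soft tissue sarcomas. All tumour libraries were below the NG2 cells in both genes, yet neither was called, with adjusted p of 0.0841 and 0.0667 for Itgb2 and 0.112 and 0.143 for Itgb7. In osteosarcoma both were higher in replicate 2 than in replicate 1. Itgax, the subunit of dendritic cells and some macrophages, had 15.7 and 30.4 CPM in the NG2 cell libraries, 3.05 and 9.96 in the osteosarcomas, and 8.98 and 4.45 in the soft tissue sarcomas and was not called (adjusted p = 0.126 and 0.139).

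Itgad, a subunit of some macrophages, had 33 and 113 reads in NG2 cells, 2 and 1 in the osteosarcomas and 24 and 16 in the soft tissue sarcomas. It fell in osteosarcoma (adjusted p = 0.0256), by a ratio of pooled counts of 49.4 with a 95% exact interval of 16.6 to 242 for counting error only. That call was kept only without NG2 cell replicate 1, and the adjusted p otherwise ranged up to 0.105, without NG2 cell replicate 2. Itgam, the subunit of neutrophils and macrophages, differed from the other leukocyte subunits: it had 12.1 and 70.8 CPM in the NG2 cell libraries, 31.3 and 21.8 in the osteosarcomas, and 84.8 and 68.1 in the soft tissue sarcomas, and the NG2 cell replicates spanned most of the range (adjusted p = 0.567 and 0.434). GENCODE places 68.7% of its exon length also in a gene model not counted in these tables.

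Markers of 3 immune cell lists are set beside the falls of Itgal, Itgae and Itga4. The lymphocyte sum was lower in every tumour, and the granulocyte sum was high mainly in NG2 cell replicate 2. The macrophage and dendritic cell sum was higher in both soft tissue sarcomas than in NG2 cells. In the osteosarcomas it was close to that of NG2 cell replicate 2. The median log2 fold change of that list against NG2 cells was -0.57 in osteosarcoma and 0.88 in soft tissue sarcoma. Of 12 lymphocyte markers 11 fell in each comparison with NG2 cells, their sums are given above, and Ms4a1 was at 0 in osteosarcoma. The 10 granulocyte markers summed to 77.7 and 3640.0 CPM in the NG2 cell libraries, 25.7 and 28.8 in the osteosarcomas, and 27 and 33.9 in the soft tissue sarcomas, with Ly6g at 0 in both tumour types and Ltf at 0 in osteosarcoma, and 6 of them fell in osteosarcoma and 3 in soft tissue sarcoma. The 12 macrophage and dendritic cell markers summed to 893 and 1782 CPM in the NG2 cell libraries, 1817 and 1865 in the osteosarcomas, and 4558 and 3837 in the soft tissue sarcomas, none at 0, with 3 higher and 3 lower in osteosarcoma and 3 higher and 4 lower in soft tissue sarcoma. Their part in the falls of Itgal, Itgae and Itga4 was not tested.

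**Figure D3:**
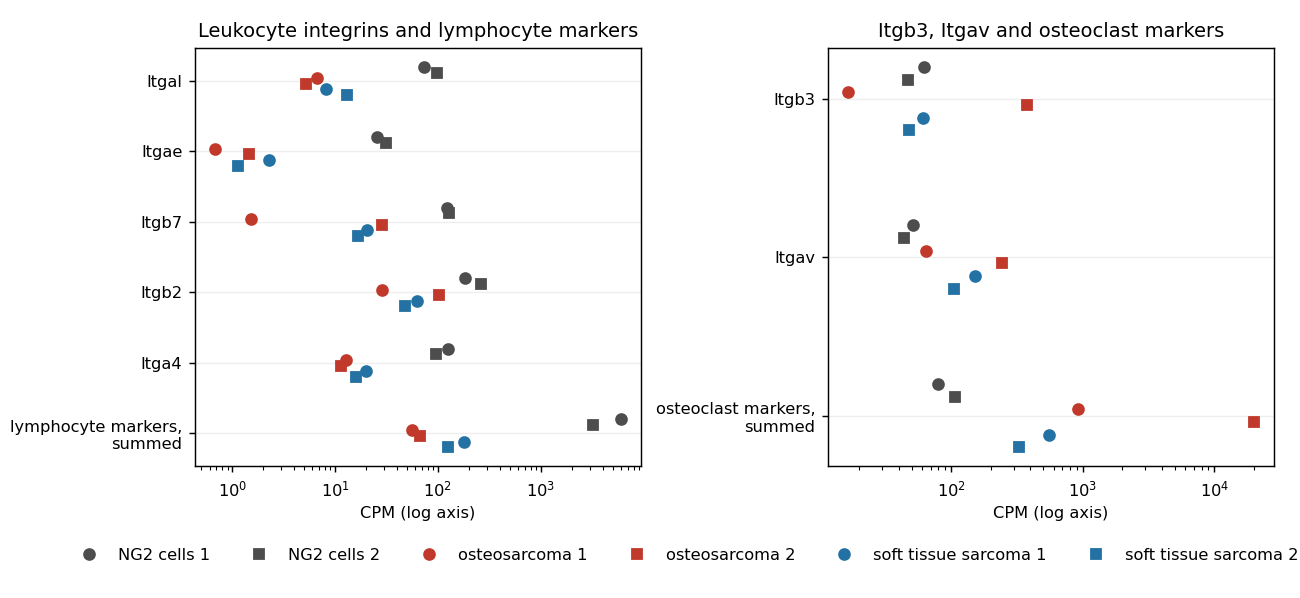
CPM per library on a log axis for leukocyte integrin subunits beside the summed lymphocyte markers (left) and for Itgb3 and Itgav beside the summed osteoclast markers (right), with color for the group and marker shape for the replicate. Both NG2 cell libraries lie to the right of all tumours in each row of the left panel, and osteosarcoma replicate 2 lies farthest right in each row of the right panel.

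Of the laminin chains, Lamb1, Lamc1 and Lama4 rose in soft tissue sarcoma, and none of the 10 rose in osteosarcoma, where 1 fell. Lamb1 (ENSMUSG00000002900; chromosome 12, 31265234 to 31329644), a beta chain of most vascular and embryonic laminins, had 42.5 and 60.2 CPM in the NG2 cell libraries, 32.3 and 197 in the osteosarcomas, and 796 and 707 in the soft tissue sarcomas. Both soft tissue sarcomas were above all other libraries, and the osteosarcomas lay on either side of the NG2 cells. It rose 14.6-fold in soft tissue sarcoma (log2FC 3.87 ± 0.85, adjusted p = 0.0313) and was not called in osteosarcoma (log2FC 1.16 ± 0.77, adjusted p = 0.31), where the log2 fold change was -0.66 without replicate 2.

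Lamc1 (ENSMUSG00000026478; chromosome 1, 153218922 to 153332786), the gamma chain of nearly all laminins outside the skin, had 85.7 and 59.1 CPM in the NG2 cell libraries, 89.7 and 175 in the osteosarcomas, and 264 and 236 in the soft tissue sarcomas. It rose 3.45-fold in soft tissue sarcoma (log2FC 1.79 ± 0.403, adjusted p = 0.0331) and was not called in osteosarcoma (log2FC 0.87 ± 0.39, adjusted p = 0.159). Lama4 (ENSMUSG00000019846; chromosome 10, 38965515 to 39110188), the alpha chain of vessel walls and of mesenchymal cells, had 55.4 and 50.5 CPM in the NG2 cell libraries, 98.4 and 199 in the osteosarcomas, and 212 and 142 in the soft tissue sarcomas. It rose 3.34-fold in soft tissue sarcoma (log2FC 1.74 ± 0.42, adjusted p = 0.0382), and in osteosarcoma it was 2.81-fold higher without passing the threshold (log2FC 1.49 ± 0.41, adjusted p = 0.0513). All tumours were above both NG2 cell libraries for Lamc1 and Lama4.

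The 3 laminin calls in soft tissue sarcoma were lost without either NG2 cell library and without either soft tissue sarcoma library, while the log2 fold changes stayed within 3.65 to 4.16 for Lamb1, 1.56 to 2.09 for Lamc1 and 1.44 to 2.03 for Lama4. The adjusted p in those fits lay between 0.0877, for Lamc1 without NG2 cell replicate 1, and 0.194, for Lama4 without soft tissue sarcoma replicate 1. DESeq2 called all 3.

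Lama2 (ENSMUSG00000019899; chromosome 10, 26980036 to 27619758), the alpha chain of the muscle fibre and Schwann cell basement membrane, had 13.9 and 17.9 CPM in the NG2 cell libraries, 1.74 and 3.63 in the osteosarcomas, and 28.6 and 10.6 in the soft tissue sarcomas. It fell 5.91-fold in osteosarcoma (log2FC -2.57 ± 0.67, adjusted p = 0.0439), a call that was lost in each of the 6 fits without a library (log2 -3.17 to -2.13), and in soft tissue sarcoma the libraries lay on either side of the NG2 cells (log2FC 0.31 ± 0.63, adjusted p = 0.754). The 8 Schwann cell markers summed to 534 and 562 CPM in the NG2 cell libraries, 249 and 141 in the osteosarcomas, and 126 and 146 in the soft tissue sarcomas, with Sox10 at 0 in soft tissue sarcoma, and 2 of them fell in osteosarcoma and 5 in soft tissue sarcoma. Their contribution to the Lama2 values was not tested. Lamb2 (ENSMUSG00000052911; chromosome 9, 108479736 to 108490530), the beta chain of neuromuscular junctions, kidney and vessel walls, had 17.3 and 41.3 CPM in the NG2 cell libraries, 121 and 90.8 in the osteosarcomas, and 39.8 and 22.9 in the soft tissue sarcomas. Osteosarcoma lay above all other libraries, at 3.61 times the NG2 cell mean, without passing the threshold (log2FC 1.85 ± 0.51, adjusted p = 0.0512), and soft tissue sarcoma was within the range of the NG2 cells (log2FC 0.097 ± 0.499, adjusted p = 0.908).

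The other chains were low. Lama5, an alpha chain of endothelium and epithelium, had 10.7 and 18.7 CPM in the NG2 cell libraries, 4.04 and 24.9 in the osteosarcomas, and 8.29 and 4.95 in the soft tissue sarcomas, and the osteosarcomas lay on either side of the NG2 cells. Lama3, an alpha chain of epithelium, had 3.82 and 5.98 CPM in the NG2 cell libraries, 0.606 and 2.84 in the osteosarcomas, and 1.34 and 1.38 in the soft tissue sarcomas, and its tumour libraries were below both NG2 cell libraries. Neither was called in either comparison (adjusted p = 0.988 and 0.376 for Lama5, and 0.263 and 0.195 for Lama3). Lama1, an alpha chain of early embryonic basement membrane, had 0 and 5 reads in NG2 cells, 88 and 46 in the osteosarcomas and 8 and 31 in the soft tissue sarcomas (adjusted p = 0.0984 and 0.207). Lamb3, the beta chain of skin laminin, had 12 and 64 reads in NG2 cells, 2 and 23 in osteosarcoma and 0 in both soft tissue sarcomas, at least 26.8-fold below the NG2 cells when 3 counts over the group stand for 0, and not called (adjusted p = 0.0824). Lamc3 had 1 read in osteosarcoma, 2 and 35 reads in soft tissue sarcoma and none in NG2 cells, and was not tested.

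**Figure D4:**
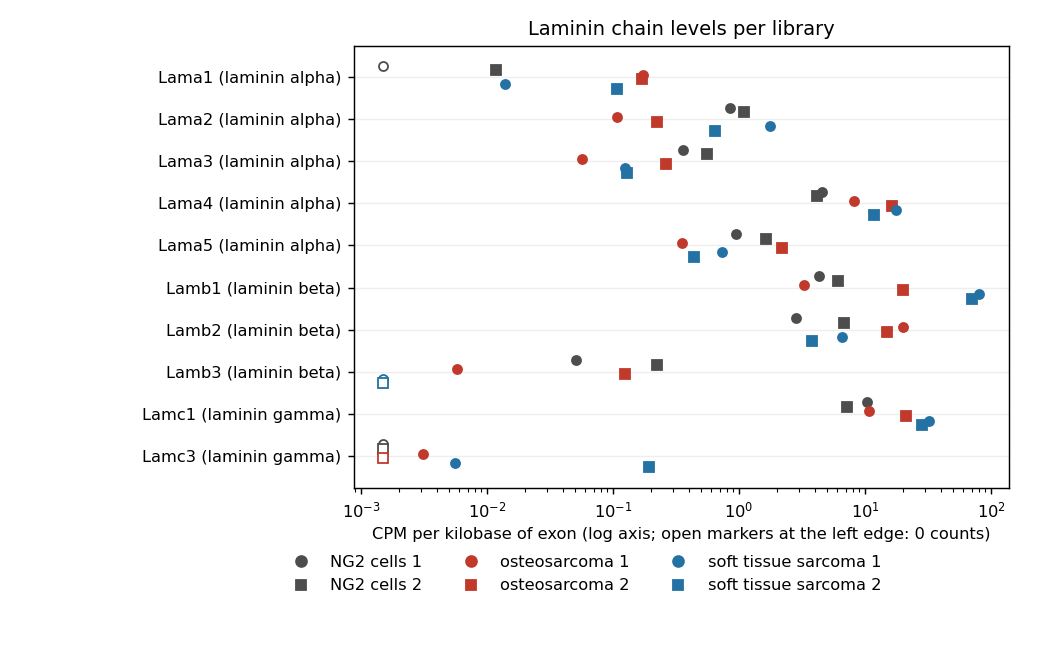
Level of each laminin chain per library in CPM per kilobase of exon on a log axis, with color for the group and marker shape for the replicate. Open markers at the left edge are libraries with 0 counts. Lamb1 of both soft tissue sarcomas lies to the right of every other chain and library, and Lamb2 is highest in the osteosarcomas.

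Per kilobase of exon, the make-up of each subunit class differed between the groups. Levels of different genes were compared only on this scale, with lengths from the union of exons in GENCODE M21. Among the 18 alpha subunits, Itga5 held 9.3% and 10.3% of the summed level in NG2 cells, 11.5% and 17.8% in the osteosarcomas and 49.4% and 69% in the soft tissue sarcomas. Itga10 held 30.1% and 9.48% in osteosarcoma, against 0.93% and 0.301% in NG2 cells and 1.7% and 0.699% in soft tissue sarcoma. Itga11 held 10.6% and 14.3% in osteosarcoma, against 0.677% and 0.328% in NG2 cells and 1.51% and 1.12% in soft tissue sarcoma. Itgal held 17.6% and 15.7% of the alpha level in NG2 cells, 1.82% and 0.85% in the osteosarcomas and 0.966% and 1.32% in the soft tissue sarcomas.

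Among the 8 beta subunits, Itgb2 led in NG2 cells with 42.1% and 43.3% and Itgb1 led in the tumours with 74.3% and 36.7% in the osteosarcomas and 59.1% and 67.3% in the soft tissue sarcomas. Itgb3 held 2.21% and 27.6% in osteosarcoma. The summed level of all beta subunits was 144 and 197 CPM per kilobase in NG2 cells, 127 and 230.2 in the osteosarcomas and 185 and 169.6 in the soft tissue sarcomas, so the groups overlapped in the sum. The summed alpha level was highest in both soft tissue sarcomas, at 128 and 152 CPM per kilobase, against 63.8 and 93.9 in NG2 cells and 55.5 and 92.3 in osteosarcoma.

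Lama4 led the 5 laminin alpha chains in every library, with 68.2% and 55.9% of their summed level in NG2 cells, 92.2% and 85.3% in the osteosarcomas and 87% and 89.9% in the soft tissue sarcomas. Among the beta chains, Lamb1 held 92.5% and 95% in soft tissue sarcoma. The leading beta chain differed between replicates in the other groups. Lamb1 held 59.6% and 46.4% and Lamb2 39.7% and 51.9% in NG2 cells, and Lamb1 held 14% and 56.9% and Lamb2 86% and 42.7% in osteosarcoma. The summed beta chain level was 7.18 and 13.1 CPM per kilobase in NG2 cells, 23.2 and 34.9 in the osteosarcomas and 86.8 and 75 in the soft tissue sarcomas, without overlap between groups. The summed gamma chain level, nearly all of it Lamc1, was 32 and 28.7 CPM per kilobase in soft tissue sarcoma, against 10.4 and 7.14 in NG2 cells and 10.8 and 21.2 in osteosarcoma. These shares and sums are descriptions without a test.

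**Figure D5:**
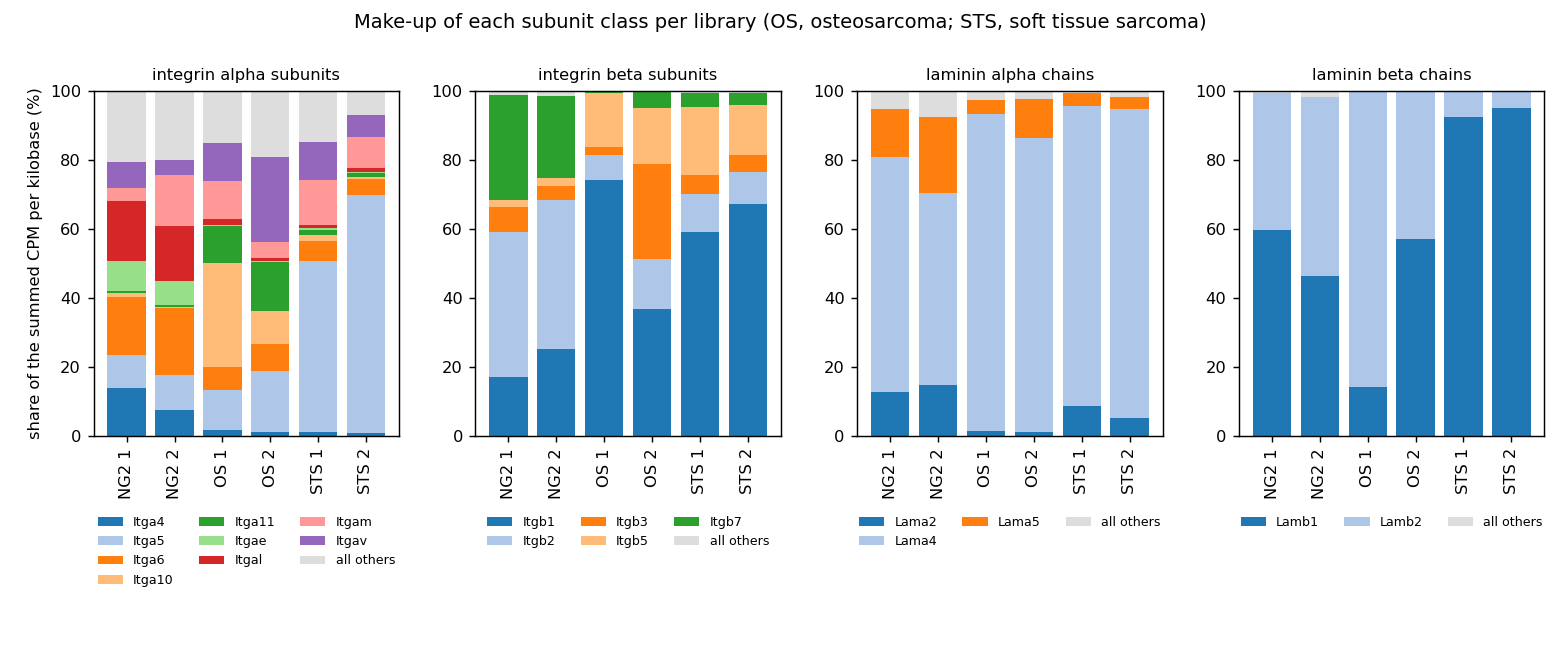
Share of each gene in the summed CPM per kilobase of its subunit class, per library, as stacked bars. Genes that reach 8% in no library are pooled as all others. Itga5 fills 49.4% and 69.0% of the alpha bar in the soft tissue sarcomas, and Lamb1 fills 92.5% and 95% of the laminin beta bar there.

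Soft tissue sarcoma and osteosarcoma were compared directly for the difference between the tumour types. edgeR called none of the 34 tested members, beside 27 genes (0.142%) of the whole table, 0.0841% higher in soft tissue sarcoma and 0.0578% lower. At an unadjusted p under 0.05 there were 9 members, beside 15.9% of all genes, and DESeq2 called 7 members, beside 10.6% of all genes. These 7 were Itga5, Itga8, Lama2 and Lamb1, higher in soft tissue sarcoma, and Itga10, Itga11 and Lamb2, higher in osteosarcoma. In edgeR the log2 fold changes of soft tissue sarcoma over osteosarcoma were 2.88 ± 0.57 for Itga5 (adjusted p = 0.113), 2.71 ± 0.81 for Lamb1 (0.203) and 2.87 ± 0.67 for Lama2 (0.145). They were -2.97 ± 0.61 for Itga10 (adjusted p = 0.118), -2.39 ± 0.499 for Itga11 (0.122) and -1.76 ± 0.51 for Lamb2 (0.197). The libraries of the tumour types did not overlap in any of these genes. As the genes were picked by the DESeq2 calls in the same libraries, this adds no support to the differences. Without osteosarcoma replicate 2, edgeR called 3 members as higher in soft tissue sarcoma: Itga5, Lamb1 and Itgb7, beside 183 higher and 132 lower genes (1.53%) of the whole table in that fit.

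The genes around integrins and laminins were described from 3 lists. Of 11 basement membrane partners, 2 (18.2%) rose in osteosarcoma, beside 10.5% of all tested genes. In soft tissue sarcoma 3 (27.3%) rose beside 9.89% of all genes, and 1 (9.09%) fell beside 9.4%, a share near the background. The median log2 fold changes of the list were 1.29 and 2.07, beside 0.04 and 0.00 over all tested genes. Hspg2, the gene of the heparan sulfate proteoglycan perlecan, had 27.1 and 35 CPM in the NG2 cell libraries, 66 and 85.9 in the osteosarcomas, and 184 and 177 in the soft tissue sarcomas and rose in both tumour types (log2FC 1.29 ± 0.28, adjusted p = 0.0277 in osteosarcoma and log2FC 2.54 ± 0.29, adjusted p = 0.00918 in soft tissue sarcoma). Nid2, a nidogen that links laminin to collagen type IV, had 6.26 and 10.4 CPM in the NG2 cell libraries, 41 and 66.7 in the osteosarcomas, and 35.3 and 40.4 in the soft tissue sarcomas and rose in both (log2FC 2.69 ± 0.42, adjusted p = 0.0131 and log2FC 2.18 ± 0.41, adjusted p = 0.0222). In soft tissue sarcoma Col4a1, a basement membrane collagen chain, rose by a log2 fold change of 2.07 ± 0.55 (adjusted p = 0.0488), and Bcam, a receptor for Lama5, fell (log2 -2.52 ± 0.63, adjusted p = 0.0415).

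Of 18 integrin ligands other than laminins and collagens, 4 (22.2%) rose and 4 fell in osteosarcoma, beside 10.5% and 11% of all tested genes. In soft tissue sarcoma 5 (27.8%) rose and 3 (16.7%) fell, beside 9.89% and 9.4%. The median log2 fold changes of the list were 0.49 and 1.46, beside 0.04 and 0.00 over all tested genes. Spp1, the gene of osteopontin and a ligand of Itgav and Itga9 integrins, had 5.98 and 31.8 CPM in the NG2 cell libraries, 3167 and 650.1 in the osteosarcomas, and 1916 and 2161 in the soft tissue sarcomas and rose in both (log2 6.66 ± 1.2, adjusted p = 0.0182, and 6.75 ± 1.21, 0.0194). Tnc, the gene of tenascin-C, had 11.3 and 35.3 CPM in the NG2 cell libraries, 978 and 5348 in the osteosarcomas, and 441 and 836 in the soft tissue sarcomas and rose in osteosarcoma (log2 7.08 ± 1.16, adjusted p = 0.0146). Ibsp, the gene of bone sialoprotein, had 0 reads in NG2 cells and 439 and 17589 CPM in osteosarcoma, where it rose (adjusted p = 0.017). Tgfbi and Adam15 rose in soft tissue sarcoma (log2 2.47 ± 0.42 and 2.03 ± 0.37), and Jam2, an adhesion molecule of endothelium that binds Itga4 integrin, fell there (log2 -5.35 ± 0.88).

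Vcam1, the counter-receptor of Itga4, had 73.1 and 93.4 CPM in the NG2 cell libraries, 21.8 and 25.4 in the osteosarcomas, and 155 and 166 in the soft tissue sarcomas. It fell in osteosarcoma (log2 -1.82 ± 0.27, adjusted p = 0.0112) and was the 1 gene of the 3 lists that differed between the tumour types (log2 2.77 ± 0.28 for soft tissue sarcoma over osteosarcoma, adjusted p = 0.0459). The value stayed within 2.7 to 2.89 in all 6 fits without a library, but it was called without osteosarcoma replicate 2 and not in the 5 others, in which the adjusted p reached 0.273.

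Of the 32 genes of cytoplasmic partners of integrins, 31 were tested. In osteosarcoma 5 (16.1%) rose and 8 (25.8%) fell, beside 10.5% and 11% of all tested genes. In soft tissue sarcoma 4 (12.9%) rose and 5 (16.1%) fell, beside 9.89% and 9.4%. The median log2 fold changes of the list were -0.05 and 0.28, beside 0.04 and 0.00 over all tested genes. Bcar1, an adaptor of focal adhesions, had 4.38 and 2.8 CPM in the NG2 cell libraries, 42.7 and 23.3 in the osteosarcomas, and 38.6 and 35.3 in the soft tissue sarcomas and rose in both (log2 3.2 ± 0.46, adjusted p = 0.0107, and 3.36 ± 0.47, 0.012). Tns3, a tensin that binds beta subunit tails, rose in osteosarcoma (log2 3.25 ± 0.41), and Actn1, an actin crosslinker of adhesions, in soft tissue sarcoma (log2 2.17 ± 0.35). Apbb1ip and Parvg, adhesion partners expressed by blood cells, fell in osteosarcoma (log2 -2.54 ± 0.29 and -2.59 ± 0.38). Nedd9, a Bcar1 relative of lymphocytes and other cells, and Lims2, a partner of integrin-linked kinase, fell in soft tissue sarcoma (log2 -3.07 ± 0.39 and -7.45 ± 1.2).

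The partner calls rested on few libraries. Without soft tissue sarcoma replicate 1 or 2 no partner gene was called in that comparison. Without NG2 cell replicate 1 its calls were kept for Hspg2, Nedd9 and Bcar1, and without NG2 cell replicate 2 for Hspg2, Nedd9 and Actn1. Over the 6 fits its log2 fold changes ranged from 1.87 to 2.61 for Nid2, 1.98 to 2.2 for Col4a1, -3.13 to -2.07 for Bcam, 6.01 to 8.43 for Spp1, 2.15 to 2.9 for Tgfbi, 1.74 to 2.42 for Adam15 and -6.54 to -4.69 for Jam2. They ranged from 2.37 to 2.75 for Hspg2, 3.09 to 3.73 for Bcar1, 1.89 to 2.54 for Actn1, -3.39 to -2.61 for Nedd9 and -7.8 to -7.11 for Lims2. In osteosarcoma, calls were lost without NG2 cell replicate 1 for Nid2 (log2 2.36), Hspg2 (1.11), Spp1 (5.9), Tnc (6.48) and Ibsp, and without replicate 2 for Hspg2 (1.5), Tnc (8.14), Bcar1 (2.92) and Ibsp. Hspg2 was also lost without osteosarcoma replicate 2 (1.1) and without soft tissue sarcoma replicate 1 or 2 (1.3 and 1.3).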

How the data were processed

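Per the labels, about 10 ng of RNA per sample was reverse transcribed with SMART chemistry, primed by oligo(dT), and amplified in 20 PCR cycles before paired-end sequencing. No molecular identifiers were described, reads are therefore not independent molecules, and counting intervals cover counting error only. The deposited values are raw read counts per Ensembl gene. Per the submitters' processing notes the tools included STAR, HTSeq, DESeq2, FastQC, cutadapt and Trim Galore, on GRCm38 and mm10. Versions, settings, strand use, the annotation and the handling of multimapping reads are not given in the sources used here, so overlapping and antisense genes are uncertain. Reads that overlapped no gene (19.5% to 33.2%) or several (2.57% to 3.22%) stayed out of library sizes.

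Symbols, positions and exon lengths came from GENCODE M21 (GRCm38), which held 36639 of the 38561 IDs, and promoter sequences from RefSeq (GRCm38.p6). Counts were scaled by TMM, filtered with filterByExpr (min.count 10, min.total.count 15) and tested with edgeR 4.0.16 in R 4.3.3. The quasi-likelihood model of 6 libraries in 3 groups had 3 residual degrees of freedom. DESeq2 1.42.0 was an alternative. CPM is edgeR's count scaled to the TMM library size. A fold against 0 counts uses 3 counts over the group and is a lower bound. With 2 libraries a group, the smallest p of an exact permutation test is 0.333. The fit was also tested on simulated counts.

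The members and gene lists were chosen with earlier results of these data known. All members were named, and of each partner list up to 4 called genes per comparison in order of p. The alternatives were other scaling, no filter, DESeq2, a fit of the 4 libraries compared, the replicate number as a block, and leaving out each library, where the lone library of a group is assumed to vary like the other groups.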

Additional observations from a re-analysis of the deposited data

Results flagged for a closer look

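Among the results on members and their partners, 1 stood out because the tumour types differed in their change from the shared NG2 cells by a direct test. Vcam1 was 6.81 times as high in soft tissue sarcoma as in osteosarcoma (log2 fold change 2.77 ± 0.28, edgeR quasi-likelihood test, adjusted p = 0.0459), with 155 and 166 CPM against 21.8 and 25.4 CPM. The difference was no longer called without NG2 cell replicate 1 or 2, osteosarcoma replicate 1, or soft tissue sarcoma replicate 1 or 2, at log2 values of 2.78, 2.77, 2.7, 2.82 and 2.73. Groups of 2 libraries were too small for a check of single outlying samples.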

How the results depend on the processing

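Groups of 2 libraries limited every test. In simulated counts edgeR recovered 1 to 3 of 100 genes changed 4-fold and 56 to 70 of 100 changed 16-fold. The simulation gave every gene the same spread (a common dispersion of 0.334) and left most genes unchanged. In the data 21.5% and 19.3% of all genes were called in osteosarcoma and soft tissue sarcoma against NG2 cells, which makes the adjusted threshold less strict. The simulated shares therefore do not give the recovery in those comparisons. RLE scaling and scaling by total counts moved no count of called members by over 1.5 times. Scaling by total counts moved the median of all genes by 0.15 in soft tissue sarcoma against NG2 cells. In osteosarcoma, 4 members higher and 7 lower became 7 higher with no filter, 9 higher and 12 lower with DESeq2, 4 lower with the 4 libraries compared and 4 lower with the replicate block. In soft tissue sarcoma, 7 higher and 3 lower became 9 lower with DESeq2, 7 lower with the 4 libraries compared and 4 higher with the replicate block. Between the tumour types, 0 became 1 higher and 1 lower with no filter and 4 higher and 3 lower with DESeq2. Leaving out single libraries gave 2 to 10 members higher and 3 to 9 lower in osteosarcoma, 0 to 9 higher and 0 to 6 lower in soft tissue sarcoma, and 0 to 3 higher and 0 lower between the tumour types. The cause was not tested. Over all genes, edgeR called 1992 higher and 2094 lower in osteosarcoma, 1882 and 1789 in soft tissue sarcoma and 16 and 11 between the tumour types, and DESeq2 called 3382 and 3584, 3218 and 3369, and 1145 and 780. The replicate numbers did not pair the libraries: the correlations of deviations from the group means were 0.08, -0.02 and -0.11.

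Without single libraries, some members that were not called changed sign. Their log2 fold changes ranged, in soft tissue sarcoma against NG2 cells, from Itga2b -0.48 to 1.06, Itga8 -1.83 to 1.88, Itgb3 -0.19 to 0.22, Lama2 -0.57 to 0.88 and Lamb2 -0.39 to 0.87. In osteosarcoma they ranged from Itga5 -0.27 to 1.08, Itga7 -0.81 to 2.93, Itgam -1.42 to 1.15, Itgb3 -1.71 to 2.78, Lama5 -1.85 to 0.76, Lamb1 -0.66 to 1.94 and Lamb3 -4.46 to 0.34. Between the tumour types they ranged from Itga3 -0.504 to 0.33, Itga7 -0.34 to 3.39, Itga9 -1.22 to 0.47, Itgav -0.89 to 1.01, Itgax -0.54 to 1.15, Itgb2 -0.85 to 0.97, Itgb3 -2.76 to 1.72, Itgb5 -0.25 to 0.64, Itgb7 -0.59 to 3.62, Itgb8 -0.25 to 0.66, Lama3 -1.03 to 1.17, Lama4 -0.13 to 0.85 and Lama5 -1.87 to 0.72. Itgb3 in soft tissue sarcoma also turned to 0.14 with total counts, 0.0082 with no filter and 0.0075 with the 4 libraries compared, and Lama5 in osteosarcoma to 0.044 with total counts. Of these, only Itgb3 in osteosarcoma was called in both directions, as a fall without osteosarcoma replicate 2 and a rise without replicate 1. No gene called with all 6 libraries changed sign under any alternative.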
